A study of Mus musculus with 43 samples.

Results

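Tumoroids treated with 8 µM regorafenib (R8) were compared with tumoroids treated with 1 µM 5-FU, line by line, to separate what followed the kinase inhibitor from what it shared with a cytotoxic drug. Tumoroids are colon organoids grown from Vil-creERT2/Apc flox/flox mice that had been injected with tamoxifen, so that the Cre recombinase, driven by the villin promoter, deleted Apc in the epithelium. The comparison holds 6 of the 43 libraries of the series, the R8 and the 5-FU library of each of the 3 lines F11, M3 and M14, and the 10611 of 52636 listed genes that reached 200 CP20M (counts scaled to 20000000 per library, so that 200 CP20M is 10 CPM) in at least 2 of those 6 libraries. Each line came from 1 mouse aged 2 months, female for F11 and male for M3 and M14, so the lines are separate animals and the arms of a line are the same animal. All groups were kept for 6 days in Matrigel in a medium with EGF, R-spondin, Noggin and Wnt3a-conditioned medium. The vehicle group (Ve, 0.5% DMSO) and the group with 4 µM regorafenib (R4) of the same lines shared the estimate of the spread. Colonoids, organoids labelled Apc WT from 3 other lines (M41, M40 and M1) under the same 4 treatments for 6 days, served for comparison with the tumoroids. The titles of the 3 tumoroid 5-FU libraries say colonoid, and these libraries were placed by their genotype label and library name.

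Regorafenib is an oral inhibitor of several kinases, among them the receptors of VEGF, FGF and PDGF, KIT, RET and TIE2 on the cell surface and BRAF within the cell. 5-FU is a uracil analogue whose metabolites block thymidylate synthase and are built into RNA and DNA. RAF kinases pass growth factor signals to MEK and ERK, and ERK in turn induces immediate early transcription factors as well as its own inhibitors. RAF inhibitors can also raise ERK signalling in cells whose RAF is not mutated, because a RAF molecule that binds the drug can activate its partner in a dimer.

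The 6 libraries held 7549926 (R8, F11) to 20178528 (5-FU, M14) recovered reads, and the share of mitochondrial transcripts was 0.76 to 1.0% in R8 and 0.66 to 0.85% in 5-FU. Of 12 epithelial markers, 11 were above 200 CP20M in every one of the 6 libraries. The exception was Cdx1, a homeobox factor of the intestine, at 0, 121 and 14 CP20M in R8 and 781, 91 and 200 CP20M in 5-FU (lines F11, M3 and M14, the order used throughout). The summed level of the 12 was 120513 to 173039 CP20M in R8 and 180585 to 204595 CP20M in 5-FU, so the groups did not overlap. Of 12 fibroblast markers 5 were at 0 in every R8 library, Col1a2, Lum and Thy1 among them, and 6 in every 5-FU library, while the summed level was 66 to 665 CP20M in R8 and 240 to 1041 CP20M in 5-FU. Most of that sum was Fbln1. Of 11 leukocyte markers found, 6 were at 0 in each group, the summed level was 854 to 1738 CP20M in R8 and 616 to 743 CP20M in 5-FU, and Ptprc did not exceed 2 CP20M in any of these libraries. The 8 endothelial markers summed to 28 to 104 CP20M in R8 and 69 to 116 CP20M in 5-FU. Counts over the whole gene do not check the deletion of floxed exons. Apc was 6032, 4748 and 5539 CP20M in R8 and 4766, 3813 and 5092 CP20M in 5-FU.

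At an adjusted p below 0.05 and a difference of at least 1.5-fold, limma called 719 of the 10611 genes, 6.78% of those tested. R8 was higher in 371 genes (3.5%) and lower in 348 genes (3.28%), and each of the 719 moved the same way in all 3 lines. The 3 values of each group did not overlap in 305 of the higher and 276 of the lower genes, against 2332 of all tested genes (22.0%), of which 1292 (12.2%) were higher and 1040 (9.8%) lower in R8. The difference exceeded 1 on the log2 scale in 111 higher and 170 lower genes. For 5942 genes (56.0%) the whole 95% interval of the difference lay within 1.5-fold. The number of calls rested on the lines: it was 1189 without F11, 177 without M3 and 2 without M14 (1355 at an unadjusted p below 0.05), each with 2 lines left. With line left out of the model 135 genes were called. edgeR called 723 genes on the recovered reads and DESeq2 called 967. All differences below are R8 minus 5-FU on the scale log2(CP20M + 20) with the standard error of that fit (n = 3 lines), which understates the change of low genes, and each adjusted p is from limma with the Benjamini-Hochberg method.

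**Figure D1:**
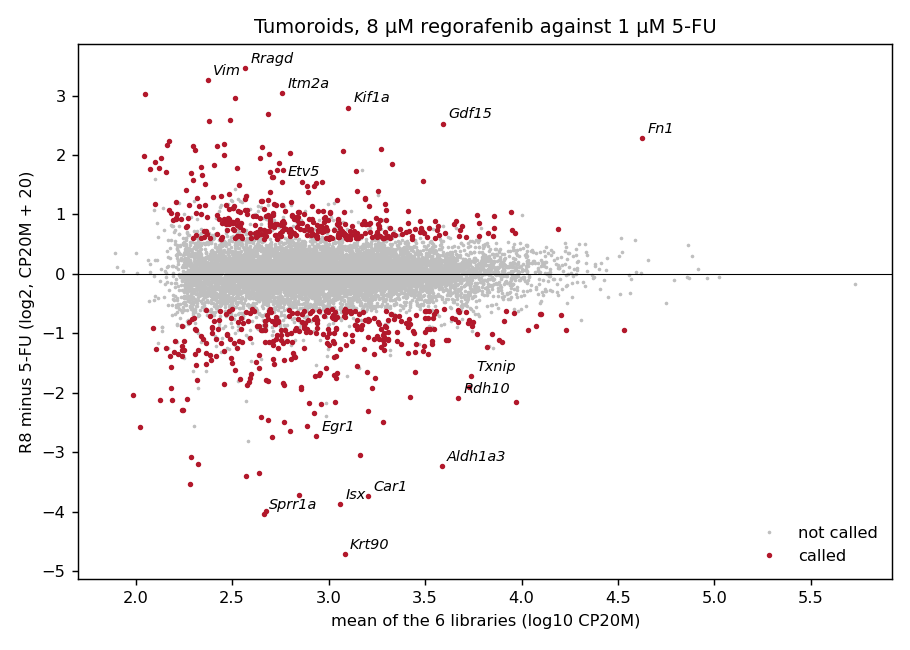
Difference between R8 and 5-FU (log2) against the mean level of the 6 libraries (log10 CP20M), 1 point per tested gene. Red points are the 719 called genes, 371 above and 348 below zero, from Rragd at 3.46 to Krt90 at -4.72.

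The genes highest in R8 relative to 5-FU were led by Rragd, which encodes RagD, a small GTPase that tethers mTORC1 to the lysosome. Rragd was 710, 393 and 976 CP20M in R8 and 24, 70 and 37 CP20M in 5-FU, so that the lowest R8 library stood above every 5-FU library (log2 difference 3.46 ± 0.37, adjusted p = 0.0018). Vehicle libraries held 7, 32 and 23 CP20M. Vim, the intermediate filament of mesenchymal cells, was 491, 364 and 474 CP20M in R8 against 13, 35 and 41 CP20M in 5-FU (3.26 ± 0.29, adjusted p = 0.00089), and at most 6 CP20M in vehicle. Itm2a, a small membrane protein, was 612, 971 and 1555 CP20M against 70, 123 and 119 CP20M (3.04 ± 0.21, adjusted p = 0.00049). In all 3 genes every R8 library was above every 5-FU library. None of the 3 reached the level of the filter in a 5-FU library. They passed the filter through R8 alone, so they could only come out higher in R8. Kif1a, a motor for vesicle transport along microtubules, varied more between lines, with 1754, 339 and 4479 CP20M in R8 and 91, 69 and 852 CP20M in 5-FU (2.79 ± 0.43, adjusted p = 0.0062). The other genes named by size were Sfrp2, a secreted Wnt modulator (3.03, at or under 5 CP20M in the 5-FU libraries), Grb10, an adaptor that restrains insulin receptor signalling (2.97), Cadps, a factor for dense-core vesicle release (2.69), Hspb8, a small heat shock protein (2.59), Trib2, a pseudokinase (2.57), Gdf15, Fn1 and Robo1, a Slit receptor (2.24). Of these, Sfrp2, Grb10, Hspb8, Trib2 and Robo1 also passed the filter through R8 alone. For Grb10 and Hspb8 neither drug was called against vehicle. In vehicle Grb10 was 34, 1554 and 168 CP20M, against 252, 857 and 686 CP20M in R8, and the M3 library stood above all R8 libraries.

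The gene with the largest decrease in R8 relative to 5-FU was Krt90, a keratin, at 59, 134 and 8 CP20M in R8 and 4024, 2420 and 615 CP20M in 5-FU (-4.72 ± 0.37, adjusted p = 0.00082). Isx, an intestine-specific homeobox factor, was 138, 148 and 90 CP20M in R8 against 3017, 1901 and 1574 CP20M in 5-FU, close to the 2814, 1959 and 1557 CP20M of vehicle (-3.88 ± 0.17, adjusted p = 1.4e-05). Sprr1a, a cornified envelope precursor, was 27, 22 and 28 CP20M in R8 and 332, 702 and 1659 CP20M in 5-FU (-4.05 ± 0.53, adjusted p = 0.0037). These groups did not overlap in any of the 3 genes. None of the 3 reached the level of the filter in an R8 library. They passed the filter through 5-FU alone, so they could only come out lower in R8. For Sprr1a, 5-FU was called above vehicle, which held 64, 44 and 160 CP20M (2.93, adjusted p = 0.015), and the R8 difference from vehicle did not pass (-1.12, adjusted p = 0.14). The list by size went on with Dmbt1 (-3.99), Car1 (-3.74), Plac8 (-3.73), Ivl (-3.41), S100a7a (-3.35), Aldh1a3 (-3.23), Krt34 (-3.20), the sodium and proton exchanger Slc9a4 (-3.08) and the retinal reductase Dhrs3 (-3.05). Of these, Dmbt1, Ivl, S100a7a, Krt34 and Slc9a4 also passed the filter through 5-FU alone.

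In the list of lysosomal and autophagy genes, 19 of 54 tested were higher in R8, against 3.5% of all tested genes. The list also held Hif1a, which is counted among the 19. Rragd is among the 19 too, and it passed the filter through R8 alone, so it could only come out higher. The difference was above zero in 40 of 54, and in 5668 of all 10611. The lysosome is controlled by the MiT/TFE transcription factors, which bind the CLEAR sequence TCACGTGA in the promoters of many lysosomal genes and are held in the cytoplasm while mTORC1 is active on the lysosome. RagD and the folliculin complex take part in that control. The list held 57 genes, 1 tested member was called lower, and the median was 0.40 against 0.02 over all tested genes. The list did not move evenly, since 34 tested members were not called, the abundant Ctsd (0.45 ± 0.15, adjusted p = 0.086) and Psap (0.40 ± 0.13, adjusted p = 0.076) among them.

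Among the regulators, Fnip1, a partner of folliculin, was 1068, 1199 and 1430 CP20M in R8 and 541, 712 and 751 CP20M in 5-FU (0.87 ± 0.09, adjusted p = 0.0016). Folliculin itself (Flcn) and Fnip2 rose by 0.68 and 0.64. In these 3 genes 5-FU libraries stood below vehicle, by 0.48 to 0.52 on the log2 scale, and R8 stood 0.11 to 0.37 above it, differences under the size required for a call. Atp6v1a, a subunit of the proton pump that acidifies lysosomes, was 9399, 6673 and 7447 CP20M in R8 and 3629, 4287 and 3751 CP20M in 5-FU (1.0 ± 0.16, adjusted p = 0.0072). Hydrolases called higher included the cathepsins Ctsa, Ctsb, Ctsl and Ctsz, the glycosidases Hexa, Neu1, Gla and Gusb, and the peptidase Tpp1, with differences of 0.63 to 0.92. Tpp1 was 1873, 2174 and 3203 CP20M in R8 against 1153, 1133 and 1485 CP20M in 5-FU. Lamp1, a membrane glycoprotein of the lysosome, Uvrag, which acts in autophagosome maturation, and Hif1a, the oxygen-regulated subunit of HIF-1, were called higher too. The R8 and 5-FU values of 18 of the 19 did not overlap, Hif1a being the exception. Of all tested genes 12.2% were higher in R8 without overlap, and of the 371 called higher 305 were. Atg9b, a lipid scramblase of early autophagosomes, was the gene called lower (-0.65). All 19 lay higher in R8 than in 5-FU in each of the 3 colonoid lines too, which are separate libraries from mice with wild-type Apc, and 18 of them, all but Lamp1, had an adjusted p below 0.05 there (limma). Of all tested genes, 2691 were higher in all 3 colonoid lines and 1391 had such a p in either direction, and of the 371 genes called higher in the tumoroids these were 324 and 203. Beside this list, Cd68, a lysosomal glycoprotein that also serves as a macrophage marker, was 350, 997 and 1219 CP20M in R8 and 151, 305 and 201 CP20M in 5-FU (1.75 ± 0.28, adjusted p = 0.0069), while the macrophage markers Adgre1, Lyz2 and C1qa were at 0 in all of these libraries. Csf1r, another macrophage marker, was 504, 462 and 515 CP20M in R8 and 402, 436 and 398 CP20M in 5-FU. It was higher in R8 in all 3 lines and was not called (0.25 ± 0.11, adjusted p = 0.20).

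Promoter windows are shown for called members of the lysosome and absorptive lists, whose called members moved mostly or wholly 1 way, to place a motif relative to the gene. The CLEAR and AP-1 motifs are shown out of 12 searched and were chosen with the matches known. The windows run from 250 bases before to 50 after the annotated start (RefSeq, GRCm38.p6), 1 window per gene. The 8 letters of CLEAR, TCACGTGA, which reads the same on both strands, stood in the windows of 2 of 16 called higher members that have a window, in 5 of 42 tested members, and in 1.01% of all 27025 windows searched. Atp6v1a (chr16:44139210-44139509, minus strand) held 1 match that began 132 bases before the start, and Gla (chrX:134600956-134601255, minus strand) held 2, beginning 228 and 195 bases before it. Over all genes with a window, the motif stood in 1.16% of those called higher and 1.66% of those called lower, against 2.23% of those tested. The AP-1 motif TGACTCA, searched on both strands, stood in 9.54% of 241 windows of genes called lower, 3.47% of 259 called higher, 3.49% of those tested and 5.17% of all windows. AP-1 is the dimer that Fos forms with Jun proteins. The other motifs searched, also on both strands, were TTTGAA (the cell cycle element CHR), TCACCCCAC (the sterol element SRE), TGATGNAA (the ATF4 element CARE), TGACNNNGC (the NRF2 element ARE), GGAATG (bound by TEAD), TTTCCCGC and TTTGGCGC (bound by E2F), the CCAAT box, ACGTG (the hypoxia element HRE, which lies within CLEAR) and GCGTG (bound by AHR). Their shares among all windows ran from 0.522 to 37.9%. Some of these also differed between called and tested genes. CARE stood in 4.25% of windows called higher against 2.08% of those tested, and CHR in 6.56% against 11.3%. GCGTG stood in 45.2% of windows called lower against 54.4% of those tested. No difference between shares was tested. A match describes the letters only. Of the called absorptive members described next, 2 of 9 with a window, Muc13 (chr16:33793787-33794086, plus strand) and Emp1 (chr6:135362681-135362980, plus strand) held 1 match each. The motif of each window is in capitals.
Atp6v1a: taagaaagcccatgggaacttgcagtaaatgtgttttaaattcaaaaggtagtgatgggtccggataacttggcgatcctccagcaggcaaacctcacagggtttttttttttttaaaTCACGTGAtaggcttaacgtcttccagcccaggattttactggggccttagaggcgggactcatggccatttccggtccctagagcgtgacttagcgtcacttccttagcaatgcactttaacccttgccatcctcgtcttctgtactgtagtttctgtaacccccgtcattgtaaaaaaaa
Gla: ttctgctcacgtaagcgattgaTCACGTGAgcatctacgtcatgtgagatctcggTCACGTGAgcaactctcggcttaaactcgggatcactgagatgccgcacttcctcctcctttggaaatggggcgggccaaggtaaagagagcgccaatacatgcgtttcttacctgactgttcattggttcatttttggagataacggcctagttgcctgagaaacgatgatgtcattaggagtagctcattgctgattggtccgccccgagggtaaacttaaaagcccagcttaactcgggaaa
Muc13: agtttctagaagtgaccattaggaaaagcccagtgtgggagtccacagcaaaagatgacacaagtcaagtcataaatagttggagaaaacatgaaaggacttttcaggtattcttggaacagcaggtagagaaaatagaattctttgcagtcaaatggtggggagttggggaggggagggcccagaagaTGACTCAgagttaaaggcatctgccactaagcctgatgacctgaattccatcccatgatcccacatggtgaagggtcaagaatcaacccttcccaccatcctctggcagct
Emp1: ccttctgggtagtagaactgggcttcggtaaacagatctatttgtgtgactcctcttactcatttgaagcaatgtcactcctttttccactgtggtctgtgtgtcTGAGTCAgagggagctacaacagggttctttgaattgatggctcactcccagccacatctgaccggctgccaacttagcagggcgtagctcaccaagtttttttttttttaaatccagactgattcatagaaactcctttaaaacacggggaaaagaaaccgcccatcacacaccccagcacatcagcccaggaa

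Absorptive colonocyte genes fell in R8. Absorptive cells are the main differentiated cells of the colon surface, with carbonic anhydrases, membrane mucins and brush border proteins, and depend on the factors HNF4A and CDX2. Of 38 listed genes only 16 passed the filter, 12 were called lower, against 3.28% of all tested genes, and none higher. The median was -1.38 against 0.02 over all tested genes. Of the 12, Dmbt1, Isx and Lypd8 reached the level of the filter in no R8 library. These genes passed the filter through 5-FU alone, so they could only come out lower in R8. Car1, a carbonic anhydrase of the colon, was 122, 249 and 255 CP20M in R8 and 2440, 2409 and 4165 CP20M in 5-FU (-3.74 ± 0.33, adjusted p = 0.00089). Dmbt1, a secreted scavenger protein, was 56, 25 and 4 CP20M in R8 and 1829, 724 and 220 CP20M in 5-FU (-3.99 ± 0.50, adjusted p = 0.0029). In both, the highest R8 library was below the lowest 5-FU library, and 5-FU was within 0.30 of vehicle on the log2 scale. Muc13, a membrane mucin, was 316, 1525 and 261 CP20M against 4521, 2816 and 2008 CP20M (-2.49 ± 0.54, adjusted p = 0.023). The transcription factors were lower as well. Hnf4a was 1778, 2318 and 1257 CP20M in R8 and 7169, 2799 and 4323 CP20M in 5-FU (-1.35 ± 0.35, adjusted p = 0.042), and Cdx2 was 999, 713 and 290 CP20M against 2844, 841 and 725 CP20M (-1.0 ± 0.21, adjusted p = 0.020), with overlapping groups for Cdx2. The decrease was smallest in line M3, where the list median was -0.70 against -1.79 in F11 and -1.63 in M14. Ceacam1, Lypd8, Cdhr2, Isx, Emp1, Scnn1a and Il18 made up the 12, and Car2, the most abundant of the list at 10106 to 29970 CP20M, was not called (-0.78 ± 0.23, adjusted p = 0.064). In bulk libraries fewer cells of a type cannot be told apart from less RNA per cell. None of the 12 was higher in R8 than in 5-FU over the colonoid lines, and in 10 of them no colonoid line was.

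**Figure D2:**
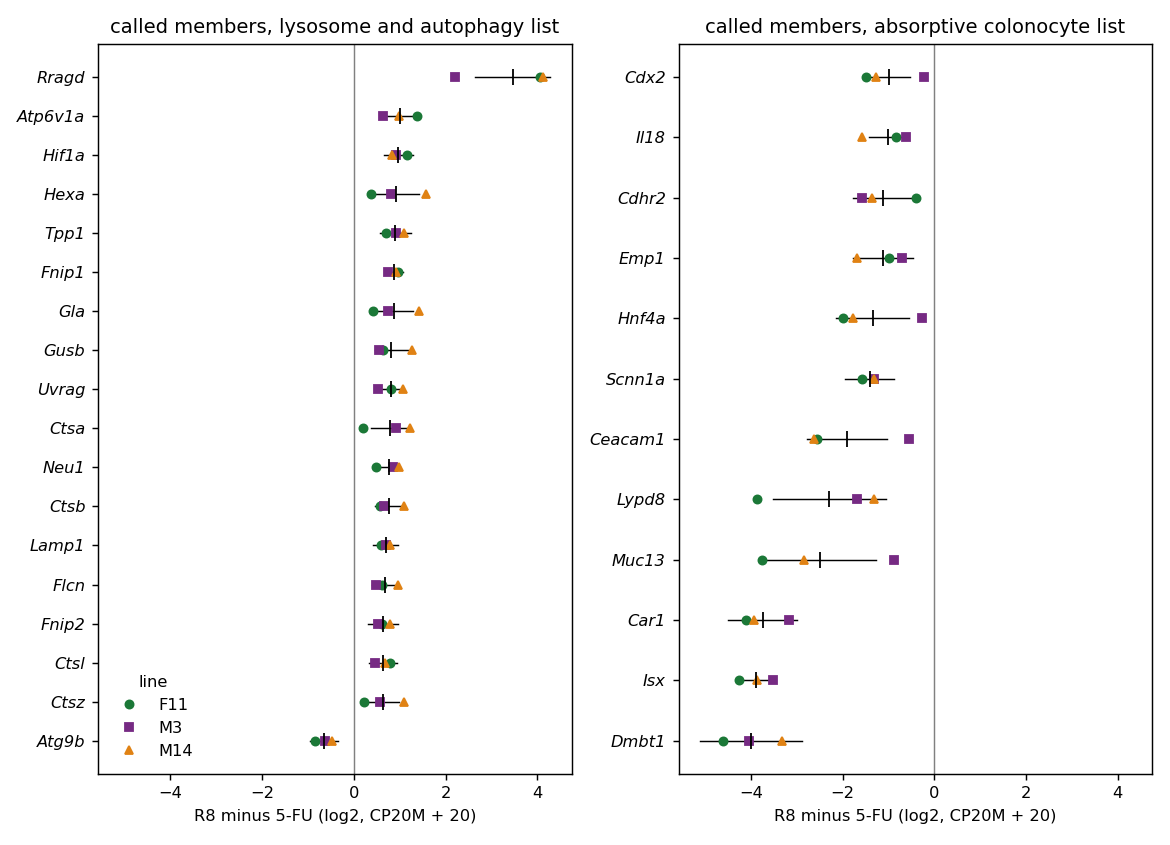
Differences between R8 and 5-FU (log2) of called members of the lysosome and autophagy list (left, 17 of the higher and the 1 lower) and of the absorptive colonocyte list (right, 12 lower). Symbols are the 3 lines, the vertical tick is the fitted difference and the bar its 95% interval.

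General epithelial genes followed in part. Of 12 epithelial markers 5 were called lower, against 3.28% of all tested genes, with a median of -0.60. Elf3, an epithelial transcription factor, was 2117, 2819 and 2282 CP20M in R8 and 5753, 3516 and 4614 CP20M in 5-FU (-0.92 ± 0.21, adjusted p = 0.029). Lgals4 (-0.89), the tight junction claudins Cldn7 (-0.78) and Cldn3, and Cdx2 were the others, and 2 of the 5 did not overlap between groups. Of all tested genes 9.8% were lower in R8 without overlap, and of the 348 called lower 276 were. E-cadherin (Cdh1) was 11998, 15378 and 15884 CP20M against 17907, 19805 and 22635 CP20M, a difference of -0.48 ± 0.10 that passed the adjusted p (0.016) and not the size, and the keratins Krt8 (-0.33, adjusted p = 0.46) and Krt19 (-0.49, adjusted p = 0.31) were not called.

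The EMT and mesenchymal list was split. Epithelial to mesenchymal transition is the loss of junctions and gain of filament and matrix proteins of mesenchymal cells. Of 33 listed genes 15 were tested. Called higher were 3 (Vim, Fn1 and the fibronectin receptor subunit Itga5), against 3.5% of all tested genes. Called lower were 5 (the junction genes Ocln, Cldn3 and Cldn7, the tropomyosin Tpm2 and the integrin Itgb6), against 3.28%. Vim passed the filter through R8 alone and Tpm2 through 5-FU alone. In R8, Vim could thus only come out higher and Tpm2 only lower. Fibronectin (Fn1) was 22870, 66208 and 121860 CP20M in R8, 5584, 11904 and 24198 CP20M in 5-FU and 935, 1430 and 2802 CP20M in vehicle. The R8 library of F11 lay just below the 5-FU library of M14, while within each line the order was vehicle, 5-FU, R8 (R8 minus 5-FU 2.28 ± 0.18, adjusted p = 0.00082). Itga5 was 194, 438 and 611 CP20M in R8 against 73, 225 and 226 CP20M in 5-FU (1.15 ± 0.19, adjusted p = 0.0076). The lowest R8 library again overlapped with 5-FU.

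Of 68 matrix genes 37 were tested, 6 were called higher and 1 lower, with a median of 0.16. Between the drugs 3.5% of all tested genes were called higher and 3.28% lower. Lamb1, a laminin chain, was 554, 549 and 1469 CP20M in R8 against 52, 390 and 325 CP20M in 5-FU (1.86 ± 0.47, adjusted p = 0.039), and Serpine2, a protease inhibitor, rose by 1.67 ± 0.40. The others were Fn1, the procollagen protease Bmp1 (1.14), the collagen hydroxylase P4ha2 and the metalloprotease inhibitor Timp2. Serpine2 passed the filter through R8 alone, so it could only come out higher. Mmp7, a metalloprotease, was lower (-1.69 ± 0.40, adjusted p = 0.031), its levels being 91, 497 and 35 CP20M in R8 and 219, 1173 and 348 CP20M in 5-FU. Against vehicle the matrix list moved with both drugs: 20 members were called higher with R8 and 15 with 5-FU, none lower, with medians of 0.71 and 0.73. Both contrasts use the same vehicle libraries, and share drug libraries with R8 against 5-FU, so each is given for itself. Over all tested genes R8 was called against vehicle in 1698 (16%), 972 higher (9.16%) and 726 lower (6.84%), and 5-FU in 613 (5.78%), 394 higher (3.71%) and 219 lower (2.06%). These counts rested on the lines as well. Without F11, M3 and M14 in turn, R8 against vehicle gave 2036, 1191 and 367 genes, and 5-FU against vehicle gave 1262, 1 and 0 genes, the last with 1449 at an unadjusted p below 0.05 in limma, so the calls against vehicle with 5-FU that follow need both M3 and M14.

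Several genes rose with both drugs and did not differ between them by the test. Thbs1, the matricellular protein thrombospondin, was 1998, 5407 and 7296 CP20M in R8, 1699, 7615 and 3754 CP20M in 5-FU and 407, 632 and 574 CP20M in vehicle. Its difference from vehicle was 2.97 with R8 (adjusted p = 0.00077) and 2.74 with 5-FU (adjusted p = 0.0064), and R8 minus 5-FU was 0.23 ± 0.36 (adjusted p = 0.73). Spp1, osteopontin, was 9987, 25080 and 40630 CP20M in R8 and 9589, 19475 and 38706 CP20M in 5-FU (0.16 ± 0.35, adjusted p = 0.81), above 1940, 1655 and 11662 CP20M in vehicle. Ctla2a, a cysteine protease inhibitor, and CT010498.1, which shares exon sequence with other genes of that locus, rose likewise (2.52 to 3.00 against vehicle), and reads of the last 2 may not be separable.

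Most genes of the integrated stress response fell with both drugs. ATF4 is the transcription factor that induces amino acid transport, serine synthesis and tRNA charging when translation initiation is limited. Of 39 listed genes 38 were tested, 31 were called lower than vehicle with 5-FU and 25 with R8, with medians of -1.16 and -0.91. The shares of all tested genes called lower were 2.06% and 6.84%. With R8 1 member was called higher than vehicle, Gdf15, and Phgdh stood at 0.03 against vehicle. Trib3, a pseudokinase target of ATF4, was 1111, 4156 and 2706 CP20M in vehicle, 112, 211 and 454 CP20M in 5-FU and 448, 424 and 387 CP20M in R8. Chac1, a glutathione-degrading enzyme, was 851, 1748 and 1989 CP20M in vehicle, 99, 123 and 360 CP20M in 5-FU and 295, 130 and 196 CP20M in R8. Neither differed between the drugs by the test (0.85 ± 0.47, adjusted p = 0.28, and 0.22 ± 0.50, adjusted p = 0.82). The amino acid transporter Slc7a5, the folate enzyme Aldh1l2 and the transcription factor Atf5 were the other genes with the largest fall in both, by 1.64 to 3.23 on the log2 scale.

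Between the drugs 5 members of that list were called higher in R8, against 3.5% of all tested genes, and none lower, with a median of 0.27. Phgdh, the first enzyme of serine synthesis, was 5089, 4221 and 4744 CP20M in R8 against 3493, 2296 and 2326 CP20M in 5-FU (0.81 ± 0.15, adjusted p = 0.013). Psph, the last enzyme of that path (0.72), Gpt2, a mitochondrial aminotransferase (1.05), and Aldh18a1, of proline synthesis, were the others of metabolism. All R8 libraries of these genes were above all 5-FU libraries. Gdf15, a stress cytokine that p53 and ATF4 can both induce, was 5060, 6528 and 8507 CP20M in R8 and 810, 1301 and 1326 CP20M in 5-FU (2.53 ± 0.39, adjusted p = 0.0062), with 774, 4838 and 3568 CP20M in vehicle. R8 was above vehicle (1.45, adjusted p = 0.022) and 5-FU was not called against it (-1.08, adjusted p = 0.11).

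**Figure D3:**
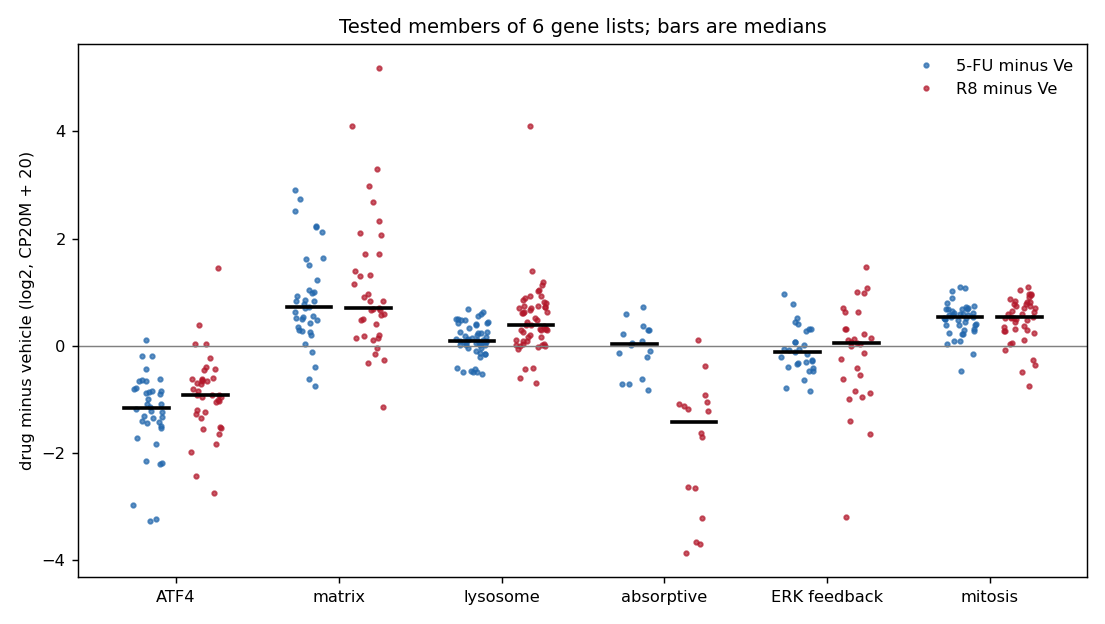
Change against vehicle (log2) of the tested members of 6 gene lists, 1 point per gene, for 5-FU (blue) and R8 (red), with the list median as a bar. The medians were -1.16 and -0.91 for the ATF4 list, 0.73 and 0.71 for matrix, and 0.03 and -1.41 for absorptive genes.

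The called targets of ERK signalling moved in opposite directions. Of 31 listed genes 29 were tested, 4 were called higher and 3 lower in R8, with a median of 0.11. The shares over all tested genes were 3.5% and 3.28%, and most tested members of the list were not called. The genes called lower were the immediate early factors Egr1 and Fos and the ERK phosphatase Dusp5. Egr1 was 218, 171 and 206 CP20M in R8, 1071, 1142 and 2378 CP20M in 5-FU and 1387, 1265 and 4354 CP20M in vehicle, so the R8 libraries lay in a narrow range below all others (-2.74 ± 0.34, adjusted p = 0.0029). Fos was 753, 730 and 495 CP20M against 1737, 1111 and 2039 CP20M (-1.26 ± 0.34, adjusted p = 0.045). The genes called higher were the feedback inhibitors Spry1 (0.90), Spry4 (0.96) and Spred1 (0.61) and the ETS factor Etv5. Etv5 was 745, 945 and 902 CP20M in R8 and 373, 242 and 244 CP20M in 5-FU, with vehicle between at 529, 531 and 491 CP20M (1.55 ± 0.20, adjusted p = 0.0034). It was called against vehicle in opposite directions, 0.71 with R8 (adjusted p = 0.027) and -0.84 with 5-FU (adjusted p = 0.033). Rdh10, which makes retinal from retinol, and the phosphatase Dusp1 were called the other way round, lower than vehicle with R8 (-1.04 and -0.72) and higher with 5-FU (1.06 and 0.99). For Rdh10 the R8 libraries held 2046, 2205 and 1100 CP20M and the 5-FU libraries 5947, 10444 and 6382 CP20M (-2.09 ± 0.20, adjusted p = 0.0011). The abundant targets Ccnd1 (-0.03 ± 0.31) and Phlda1 (0.20 ± 0.22) were not called.

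**Figure D4:**
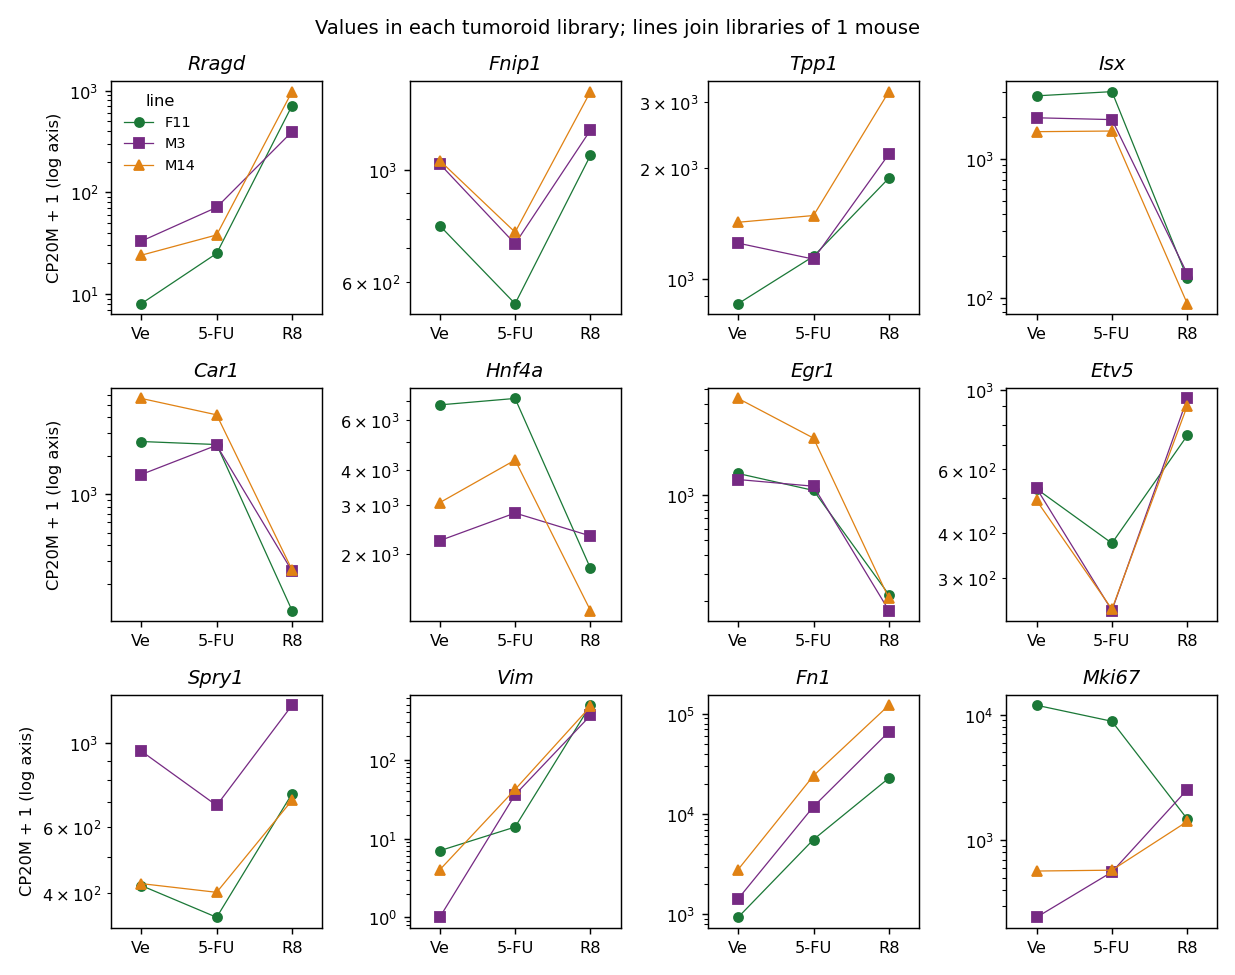
CP20M plus 1 (log axis) of 12 genes in the vehicle, 5-FU and R8 libraries of the 3 tumoroid lines, joined within a line. Egr1 lies at 171 to 218 CP20M in R8 against 1071 to 2378 CP20M in 5-FU, and Mki67 changes in opposite directions in F11 and in the other lines.

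Of 24 kinases that regorafenib inhibits 12 passed the filter, and 1 was called higher and 2 lower, against 3.5% and 3.28% of all tested genes. Fgfr4 was 85, 303 and 44 CP20M in R8 and 1107, 965 and 564 CP20M in 5-FU (-2.74 ± 0.43, adjusted p = 0.0069), and the collagen receptor Ddr1 was 2803, 4925 and 4074 CP20M against 6354, 9400 and 7732 CP20M (-1.01 ± 0.12, adjusted p = 0.0023). In both, every R8 library was below every 5-FU library. Flt4, a VEGF receptor, was higher (1.42 ± 0.33, adjusted p = 0.031), with 146, 238 and 419 CP20M against 22, 172 and 102 CP20M. Flt4 passed the filter through R8 alone, so it could only come out higher in R8. Braf was higher by 0.58 ± 0.11 (adjusted p = 0.012), just short of 1.5-fold, and Fgfr2 was lower by 0.85 ± 0.28 and missed the adjusted p (0.088). Of 25 ligands of these receptors 11 were tested and 1 was called, Pdgfc, a PDGF, at 279, 436 and 311 CP20M against 76, 183 and 80 CP20M (1.51 ± 0.18, adjusted p = 0.0026). Pdgfc, too, passed the filter through R8 alone and could only come out higher. Vegfa (0.20 ± 0.11) and Pdgfb (0.08 ± 0.10) were not called. Against vehicle Vegfa was lower with both drugs (-0.66 with R8, -0.86 with 5-FU) and Pdgfb higher with both (1.33 and 1.25).

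Genes that DNA damage and 5-FU are known to engage were called in numbers near the background of 6.78%. Of 36 p53 targets 32 were tested, 2 were called higher in R8 (Gdf15 and the ribonucleotide reductase subunit Rrm2b, 0.67 ± 0.18) and 1 lower, with a median of -0.02. The gene called lower was Bbc3, the proapoptotic protein PUMA, at 313, 292 and 377 CP20M in R8 and 535, 628 and 663 CP20M in 5-FU (-0.86 ± 0.13, adjusted p = 0.0057). Cdkn1a, the cell cycle inhibitor p21, was 7736, 5667 and 4517 CP20M in R8, 6201, 8648 and 6948 CP20M in 5-FU and 4778, 5602 and 5429 CP20M in vehicle, and was called for neither drug against vehicle nor between them (-0.30 ± 0.20, adjusted p = 0.36). Tyms, thymidylate synthase, was 453, 348 and 361 CP20M in R8 and 1286, 233 and 289 CP20M in 5-FU (-0.21 ± 0.33, adjusted p = 0.74). Of 38 genes of pyrimidine metabolism 32 were tested and Rrm2b was the call. Among 28 tested genes of apoptosis Bcl2, an inhibitor of apoptosis, was higher, with 906, 904 and 947 CP20M in R8 against 497, 415 and 486 CP20M in 5-FU (0.95 ± 0.12, adjusted p = 0.0037), and Bok was lower with Bbc3.

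Proliferation genes gave no call between the drugs in any of 43 tested mitosis genes, 35 replication genes or 22 repair genes, and the lines went apart. In F11 the median difference of the mitosis genes was -1.70 and 1 of 43 was higher in R8. In M3 it was 0.92 with 43 of 43 higher, and in M14 0.64 with 42 of 43 higher. Mki67, the proliferation antigen, shows the levels behind this: 11896, 242 and 567 CP20M in vehicle, 8861, 557 and 576 CP20M in 5-FU and 1473, 2533 and 1410 CP20M in R8. F11 thus held far more of these transcripts than the other lines without regorafenib, and with R8 the 3 lines lay close together. The 44 listed mitosis genes summed to 102519, 7097 and 9167 CP20M in vehicle, 90724, 13207 and 13000 CP20M in 5-FU and 26365, 27119 and 20936 CP20M in R8. Replication genes went the same way, with medians of -1.39, 0.72 and 0.55, as did repair genes, with -0.95, 0.60 and 0.61. One library per line and drug gives no test within a line. In the 3 colonoid lines the median of the mitosis genes was -2.04, -1.60 and -0.80.

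**Figure D5:**
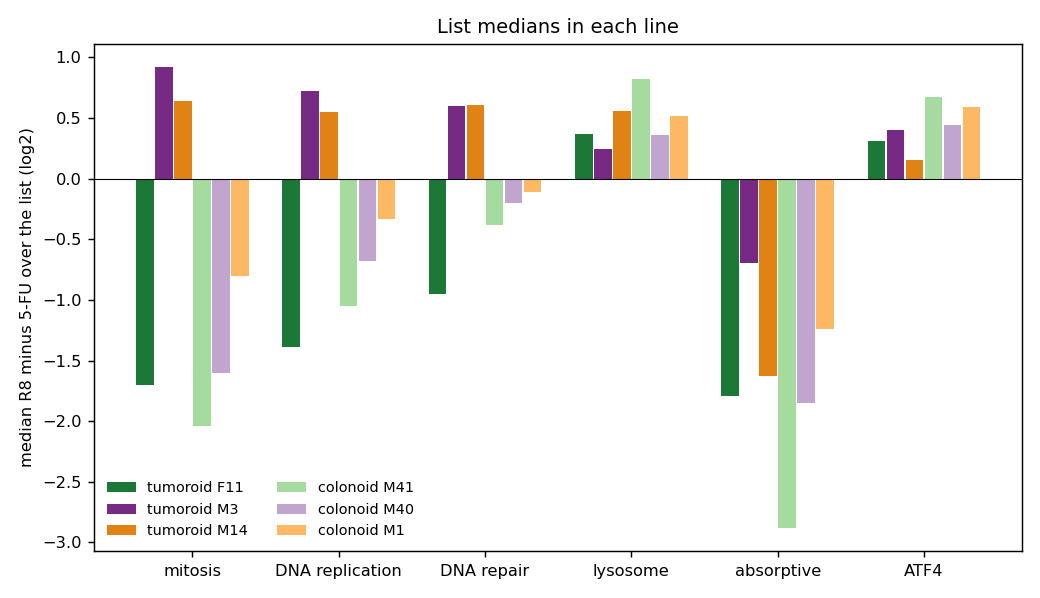
Median difference between R8 and 5-FU (log2) over 6 gene lists in each of 3 tumoroid and 3 colonoid lines, as bars from zero. The mitosis median is -1.70 in tumoroid F11 and above zero in M3 and M14, while the lysosome median is above and the absorptive median below zero in all 6 lines.

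In the cholesterol list 4 of 40 tested genes were called higher and 2 lower, with a median of 0.02. Beside the lists of this paragraph, 3.5% of all tested genes were called higher and 3.28% lower. The genes called lower were the sterol exporters Abca1 (120, 441 and 343 CP20M in R8 against 1051, 1222 and 1570 CP20M in 5-FU, -2.17 ± 0.37, adjusted p = 0.0097) and Abcg1 (-1.66). The others were Gramd1a, which carries cholesterol from the plasma membrane, at 652, 1222 and 1928 CP20M against 200, 362 and 781 CP20M (1.53 ± 0.13, adjusted p = 0.00082), the lysosomal carrier Npc2 (0.89 ± 0.08) and the synthesis enzymes Lss and Hsd17b7. Of the hypoxia and glycolysis list 1 was higher and 3 lower among 32 tested, with a median of -0.09. Txnip, a glucose-responsive inhibitor of glucose uptake, was 2528, 2514 and 2475 CP20M in R8 and 6470, 8656 and 10236 CP20M in 5-FU (-1.72 ± 0.15, adjusted p = 0.00087), and its relative Arrdc4 fell with it (-1.38 ± 0.21). Car9, a hypoxia-induced carbonic anhydrase, was lower (-1.71) and Pfkm, a phosphofructokinase, higher (1.04), while the glycolytic enzymes Pkm (0.03) and Eno1 (-0.14) were not called. In the colonoid lines M41, M40 and M1, Car9 was 417, 277 and 334 CP20M in R8 and 389, 202 and 345 CP20M in 5-FU. Its difference between the genotypes, -1.87 ± 0.33, had the lowest adjusted p of that contrast (0.229, limma over 24 libraries) and did not pass. None of 23 tested genes of the endoplasmic reticulum stress list and none of 7 mitochondrially encoded genes was called (medians 0.19 and 0.34), and in the NRF2 list 1 of 24 was, the glutathione transferase Mgst1 (1.25).

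In the TGF-beta and inhibin list 2 of 22 tested genes were higher, the ligand Tgfb3 (1.25) and the activin antagonist Fstl3 (1.27), and 2 lower, the receptor Acvr2b (-0.76) and the target Id2 (-1.59), with a median of -0.14. Acvr2b passed the filter through 5-FU alone, so it could only come out lower. Beside each list of this paragraph, 3.5% of all tested genes were called higher and 3.28% lower. In the list of YAP targets and fetal-like epithelial genes 4 of 29 were lower and none higher, with a median of -0.10. One of them was Clu, a chaperone of regenerating epithelium, at 19405, 21766 and 28516 CP20M in R8, 33343, 48513 and 52949 CP20M in 5-FU and 11746, 9691 and 21503 CP20M in vehicle (-0.94 ± 0.18, adjusted p = 0.015). Both drugs were above vehicle, by 0.77 (R8) and 1.71 (5-FU). The others were the alarmin Il33, Msln and Sprr1a, the last of which passed the filter through 5-FU alone. In the Wnt and stem list 1 of 27 was called, the Wnt antagonist Dkk2 (2.07 ± 0.26, adjusted p = 0.0031), with 268, 3497 and 1877 CP20M against 28, 918 and 557 CP20M. Of 18 goblet genes 3 were tested and Kcnk6 was called lower (-1.52 ± 0.42, adjusted p = 0.0495), while Foxa3, a factor of goblet cells, was 512, 605 and 511 CP20M in R8 and 1272, 598 and 1096 CP20M in 5-FU (-0.78 ± 0.32, adjusted p = 0.16). Kcnk6 reached the level of the filter in no R8 library. It passed the filter through 5-FU alone, so it could only come out lower in R8. Of 23 enteroendocrine and tuft genes 2 were tested and none was called. Interferon genes gave 1 higher (Bst2) and 1 lower (Irf1) of 15, xenobiotic genes 1 higher (Tiparp) and 1 lower (Aldh1a3) of 16, and secreted factors 1 higher (Gdf15) and 3 lower (Cxcl5, Il18 and Il33) of 13, against 6.78% of all tested genes called in either direction.

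Of the 21 genes that the study names for regorafenib in organoids, some chosen on libraries that include these and some on proteins secreted by tumoroids, 15 were tested. Their directions are not independent evidence. Fn1, Bmp1 and Gramd1a were called higher in R8 than in 5-FU and the cytokine Il18 lower (-1.01 ± 0.19). Among all tested genes 3.5% were called higher and 3.28% lower. The proteoglycan Gpc1 (0.47) and the transcription factor Myc (-0.54) passed the adjusted p and not the size. The receptor Ptk7, the RNA-binding protein Mex3a, the coactivator Yap1, the exchange factor Tiam1, Cdca7 (read here for a stem cell signature gene that the study spells otherwise), the phospholipase Plce1, Thbs1, Spp1 and Tnfrsf11b, osteoprotegerin, were not called. Tnfrsf11b was 2713, 6275 and 3595 CP20M in R8 and 2977, 7313 and 11695 CP20M in 5-FU (-0.68 ± 0.34, adjusted p = 0.23). Inha, Cxcl1, Ascl2, Aqp4, Chga and Muc2 did not pass the filter. Ascl2, a stem cell factor, was 32, 160 and 39 CP20M in R8 and 568, 191 and 169 CP20M in 5-FU, and Aqp4, a water channel, was 0, 7 and 12 CP20M against 1183, 38 and 70 CP20M.

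The same genes were examined in other treatments and genotypes. In the tumoroids, where the R4 and vehicle libraries had entered the fit that gave the calls, R4 was above vehicle in 324 of the 371 genes called higher (87.3%) and in 63 of the 348 called lower (18.1%), against 43.9% of all tested genes. In the colonoids, whose libraries that fit did not hold, R8 was above 5-FU in 364 of the 371 (98.1%) and in 7 of the 348 (2.01%), against 44.4% of all. The median colonoid difference was 0.95 and -1.04 for these genes. A test of whether the difference between the drugs itself differed between tumoroids and colonoids, fitted in all 24 organoid libraries, gave 0 genes at an adjusted p below 0.05 with limma and 0 with edgeR. An unadjusted p below 0.05 was reached by 396 genes (3.73%) with limma and 723 with edgeR, the lowest adjusted p was 0.229, and the median standard error of this contrast was 0.32, so that only differences several times that size could pass. The shallowest of the 24 libraries, an R4 library of the colonoids with 512592 reads, is part of that fit, and without it 0 genes passed and 1081 had an unadjusted p below 0.05.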

How the data were processed

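Reads were trimmed with Trimmomatic 0.36, aligned to GRCm38 with STAR 2.5.3a and counted per Ensembl gene with HTSeq 0.9.1, per the labels and the methods of the authors, and the strand setting was not given in the sources used here. The methods name a directional kit (NEBNext Ultra II) and the labels another (Ovation SoLo). The signal in the deposited table is CP20M, the count scaled by the authors to 20000000 per library and rounded up, not divided by length. Whole reads were recovered from the steps of the values (99.85 to 100% whole in the 6 libraries, by rounding up the nearest multiple). Samples were grouped by their labels. log2(CP20M + 20) was fitted with limma 3.58.1 (R 4.3.3, eBayes with trend) in the 12 tumoroid libraries with line as a block, which pairs samples of the same mouse (correlation of deviations from the group means 0.24 to 0.89 over the 18 same-line pairs). Genes with 200 CP20M in 2 of the 6 libraries were tested, and p-values were adjusted with Benjamini-Hochberg. Tests are two-sided. No replicate pair agreed within sampling noise (lowest chi-square per gene 34.7). edgeR 4.0.16 and DESeq2 1.42.0 on recovered reads were alternatives. On simulated data for R8 against 5-FU with 10611 genes, limma recovered 22% of changes of 1.5-fold, 74% of 2-fold and 96% of 3-fold. The noise was drawn for each gene separately around the line means. Shifts that many genes share within a library, as the mitosis genes did here, were not part of it. Named genes were the 12 largest called differences per direction that are protein coding, up to 4 called and 2 abundant members of each list, the 5 genes per direction with the largest smaller change among those called against vehicle with both drugs, those called in opposite directions, and the genes the study names. Other members named where the calls of a list are given in full, and the markers Cdx1 and Fbln1, were chosen after their values were seen. The genes and lists were chosen with earlier results of these data known. Fibroblast libraries were not used here. The annotation was GENCODE M21, and since the strand setting is not known, reads of a gene and of one that overlaps it on the other strand cannot be told apart. Values of a few list members are not reported here, although the counts include them.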

Additional observations from a re-analysis of the deposited data

Results flagged for a closer look

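Trpm5, a cation channel of tuft cells, was lower in R8 than in 5-FU in all 3 tumoroid lines (138, 118 and 200 against 211, 177 and 215 CP20M) and higher in all 3 colonoid lines (176, 121 and 179 against 108, 116 and 177 CP20M, so by 2 to 5 CP20M in 2 of them). Opposite movement in every line led to its being listed here. The difference between the genotypes was -0.61 ± 0.29 on the log2 scale and did not pass (adjusted p = 0.998 in limma over 24 libraries), and R8 against 5-FU was called in neither genotype (adjusted p = 0.23 and 0.52 in limma). Groups of 3 libraries were not examined for outlying samples.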

How the results depend on the processing

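Between R8 and 5-FU, in place of 719 genes, 135 were called with no replicate block (line not in the fit), 113 with only the 6 libraries (109 of them among the 719) and 349 with all 24 organoid libraries (343), and leaving out 1 line gave 2 to 1189. Against vehicle, R8 gave 1062 without the block in place of 1698 and 614 with only the 6 libraries compared, and 367 to 2036 with 1 line left out. 5-FU gave 85 without the block in place of 613, 264 with all 24 libraries, 395 with no filter on low values, and 0 to 1262 with 1 line left out (1 without M3 and 0 without M14, where 1572 and 1449 genes had an unadjusted p below 0.05). Other pseudocounts, TMM scaling, edgeR and DESeq2 kept each count within 1.5 times, and 669 of the 719 genes were also called by edgeR. The share of calls higher in R8 was 51.6%, and 45.8% with TMM scaling, 39.8% with only the 6 libraries, 41.8% with all 24, 61.6% without F11 and 37.9% without M3, while without M14 both calls were lower. Without the R8 library of F11, the shallowest of the tumoroid libraries (chosen after seeing the data), 635 were called, 491 of them among the 719. The contrast of genotypes gave 0 genes under every alternative, with 148 to 1081 at an unadjusted p below 0.05. Of 152 named genes, 94 kept their side of the threshold without the block and 74 without M14, and the difference of Top2a, a topoisomerase of dividing cells that was not called (-0.17), was 0.87 and called without F11, -0.82 to 0.87 with 1 line left out, and 0.09 and 0.11 in edgeR and DESeq2. Leaving out a line leaves fewer libraries, and the cause of the differences between lines was not tested.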

Other observations

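Many genes of stratified and cornified epithelium were low in R8. The group was put together after the values were seen, so its count and median are no test. Of 51 found, 15 were tested (Sprr and Lce genes, Ivl, Lor, S100a7a and keratins of stratified epithelia). Of these, 10 were called lower than in 5-FU, against 3.28% of all tested genes, and none higher, with a median of -2.33. Lce1h, Sprr1a, Ivl, Lor, S100a7a, Krt90 and Krt34 reached the level of the filter in no R8 library. These genes passed the filter through 5-FU alone, so they could only come out lower in R8. Krt4, a keratin of stratified mucosa, was 4620, 5449 and 1239 CP20M in R8, 18671, 17465 and 8689 CP20M in 5-FU and 10102, 19502 and 11266 CP20M in vehicle (-2.16 ± 0.44, limma adjusted p = 0.018). For Sprr1a, S100a7a and Lce1h the 5-FU libraries stood above vehicle, by 2.93, 2.05 and 2.35 on the log2 scale, while Krt4, Krt13 and Krt23 lay below vehicle in R8, by -2.04, -2.07 and -2.88. Ivl, involucrin, was 56, 17 and 21 CP20M in R8, 246, 298 and 1613 CP20M in 5-FU and 35, 7 and 540 CP20M in vehicle. Not called were Krt14 (-1.19 ± 0.48, adjusted p = 0.15 in limma), Krt6a (0.47 ± 0.42, adjusted p = 0.52 in limma) and the 3 Sprr2a genes, near-identical copies whose reads may be shared.

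Genes of retinoid handling were also grouped after the values were seen, so their count is no test. Of 20 found, 10 were tested and 5 were called lower in R8, against 3.28% of all tested genes. Besides Rdh10 these were the retinol receptor Stra6 (2761, 7462 and 2647 CP20M in R8 against 8134, 9813 and 8979 CP20M in 5-FU), the retinal reductase Dhrs3, the retinoic acid synthase Aldh1a3 and the nuclear receptor Rarg (-0.67 ± 0.16). Aldh1a3 was 838, 504 and 305 CP20M in R8, 4264, 1828 and 15381 CP20M in 5-FU and 946, 707 and 2077 CP20M in vehicle. Rara and Rxra, other receptors of this pathway, were not called (-0.34 and -0.09). Retsat (-0.16) and Aldh1a1 (-0.59) were not called either. Rdh11, also not called, went the other way, at 679, 847 and 952 CP20M in R8 against 605, 600 and 635 CP20M in 5-FU (0.40 ± 0.15).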
